A study of Mus musculus with 40 samples.

Results

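The genes described here are 9 genes of the endothelium (Pecam1, Cdh5, Plvap, Emcn, Ehd3, Kdr, Flt1, Tek and Tie1) and Vegfa, the growth factor that signals to it. They were taken by symbol from a table of 55401 genes, and all 10 were found. RNA was sequenced from the renal cortex of 40 male C57BL/6J mice, 5 in each of 8 groups, with 1 library per animal. In 4 groups the mice were wild type (WT) littermates and in the other 4 they were heterozygous Ins2-Akita mice (Akita), which carry a mutated insulin gene and are diabetic without being obese. Mice of the ethanol arm received either the vehicle alone (10% ethanol in water) or MitoGamide at 10 mg/kg, by daily gavage from 6 to 22 weeks of age. MitoGamide is a mitochondria-targeted scavenger of dicarbonyls such as methylglyoxal. Mice of the water arm, known here from their group labels, received water or MitoQ, a mitochondria-targeted antioxidant whose dose is not given in the sources used here. The protocol attached to all samples gives the same ages for them. The Akita change is a point mutation, so that gene counts do not check the genotype labels.

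In the kidney, endothelial cells line the glomerular capillaries, through which the plasma is filtered, and the peritubular capillaries, which take up what the tubules reabsorb. Podocytes and tubular cells release Vegfa, which binds Kdr (VEGF receptor 2, the main signaling receptor) and Flt1 (VEGF receptor 1, which also exists as a soluble decoy). Tek (Tie2) is the receptor of the angiopoietins and Tie1 is its partner. Pecam1 and Cdh5 (VE-cadherin) hold endothelial cells together at their junctions. Plvap forms the diaphragms of fenestrae and caveolae and is typical of peritubular rather than mature glomerular capillaries, Emcn (endomucin) is a sialoglycoprotein of capillary and venous endothelium, and Ehd3 is a membrane trafficking protein enriched in the glomerular endothelium.

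On GRCm38, as annotated by GENCODE release M21, Pecam1 lies on chromosome 11 (106654217 to 106750628, minus strand), Cdh5 on chromosome 8 (104101625 to 104144511, plus strand) and Plvap on chromosome 8 (71497765 to 71511752, minus strand). Emcn lies on chromosome 3 (137341067 to 137432185, plus strand) and Ehd3 on chromosome 17 (73804134 to 73832094, plus strand). Kdr and Flt1 are both on chromosome 5 and on the minus strand (75932827 to 75978458 and 147561604 to 147726011). Tek (94739289 to 94874976, plus strand) and Tie1 (118471191 to 118490061, minus strand) are both on chromosome 4, and Vegfa lies on chromosome 17 (46016993 to 46032369, minus strand). Cdh5 and Plvap each overlap a gene on the opposite strand (Gm29682 and Gtpbp3) and share 0 exonic bases with it. Values are sums over all transcripts of a gene, so that the soluble and the membrane forms of Flt1 could not be told apart.

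RefSeq start sites (GRCm38.p6) were found for 7 of the 10 genes. The 250 bases before the start are shown for 4 of them, namely Emcn, which was called lower in Akita mice on ethanol and over all treatments, the receptors Kdr and Flt1, and their ligand Vegfa. They read 5′ to 3′ on the strand of the gene, and capitals mark the core GGAA of ETS factor motifs on either strand (TTCC when read on the other).
Emcn, chr3:137340828-137341077: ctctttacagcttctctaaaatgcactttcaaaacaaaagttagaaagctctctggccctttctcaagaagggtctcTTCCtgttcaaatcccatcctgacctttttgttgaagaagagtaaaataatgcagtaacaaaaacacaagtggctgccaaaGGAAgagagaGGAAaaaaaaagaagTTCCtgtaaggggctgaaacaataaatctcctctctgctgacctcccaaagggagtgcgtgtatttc
Kdr, chr5:75978456-75978705: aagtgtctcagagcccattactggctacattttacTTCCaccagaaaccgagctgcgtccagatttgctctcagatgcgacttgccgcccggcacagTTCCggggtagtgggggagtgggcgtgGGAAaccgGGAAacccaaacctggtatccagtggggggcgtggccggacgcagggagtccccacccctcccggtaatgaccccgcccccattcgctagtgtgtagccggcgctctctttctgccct
Flt1, chr5:147726012-147726261: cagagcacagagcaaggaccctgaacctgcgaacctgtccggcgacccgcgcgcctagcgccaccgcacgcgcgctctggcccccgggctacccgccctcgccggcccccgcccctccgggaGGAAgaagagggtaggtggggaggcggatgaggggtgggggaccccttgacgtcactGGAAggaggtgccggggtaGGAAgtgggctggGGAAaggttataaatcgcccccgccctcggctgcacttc
Vegfa, chr17:46032378-46032627: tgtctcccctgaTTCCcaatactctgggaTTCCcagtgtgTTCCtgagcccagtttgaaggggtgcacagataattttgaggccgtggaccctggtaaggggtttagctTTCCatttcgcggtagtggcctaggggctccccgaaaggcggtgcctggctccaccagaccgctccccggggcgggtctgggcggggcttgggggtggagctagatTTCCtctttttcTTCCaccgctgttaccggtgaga
The Emcn, Kdr and Flt1 windows each held 4 such cores and the Vegfa window held 6. The median over 32851 start sites was 3, and 93.4% of them held at least 1 core, so that its presence does not set these genes apart. ETS factors are a family of transcription factors with many members in endothelial cells. The hypoxia core (ACGTG or GCGTG on either strand) occurred 0 times in the Vegfa window shown, 2 times in that of Kdr and 1 time each in those of Flt1 and Emcn, and was present at 38.6% of all start sites. It occurred 2 times in a window before a second RefSeq start of Vegfa (chr17:46025164-46025413, not shown). That window lies inside the annotated Vegfa gene and not upstream of it. These matches describe the sequence and are not sites of binding.

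Library totals ranged from 9106654 to 24321424 estimated counts. Levels are given in CPM, counts scaled to a common library size, after TMM normalization over the 40 libraries, and fold changes come from the quasi-likelihood test of edgeR, fitted to the libraries compared, with the standard error (SE) and the Benjamini-Hochberg adjusted p over all tested genes. A gene was called where this p was under 0.05. All 10 genes passed the filter of a mean of 10 counts in every comparison, and their counts ranged from 100 (Tie1) to 3973 (Vegfa) in single libraries. Libraries of the water arm were less even than those of the ethanol arm, since the 10 most abundant genes held 24.8% to 72.5% of the counts there and 28.6% to 38.0% in the ethanol arm. In 5 libraries, all of the water arm (Akita water replicates 2 and 5, WT water replicates 3 and 4, WT MitoQ replicate 3), this share was above 45%. Of the markers of cortex and medulla, the 7 proximal tubule genes summed to between 7701 and 15387 CPM and the 6 collecting duct genes to between 117 and 307 CPM. All 26 further endothelial genes listed for comparison passed the filter. In bulk tissue, fewer cells of a type and less RNA per cell cannot be told apart.

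Per kilobase of exon, Plvap had the highest level (44.4 ± 13.8 CPM per kilobase, SD over n = 40 libraries), followed by Vegfa (27.9 ± 11.8) and Kdr (10.2 ± 2.60). Tek (8.13 ± 2.07), Pecam1 (7.93 ± 2.27), Cdh5 (7.43 ± 1.92), Flt1 (6.65 ± 1.91), Tie1 (6.39 ± 1.36) and Emcn (6.09 ± 1.59) followed, and Ehd3 was the lowest (3.81 ± 0.781). From Kdr to Emcn, neighbours in this order differed by less than 1 SD. Plvap, Vegfa and Ehd3 stood further from their nearest neighbours than the SD of either gene. Over the 40 libraries, the highest level of a gene exceeded its lowest between 2.25-fold (Tie1) and 3.99-fold (Vegfa).

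**Figure D1:**
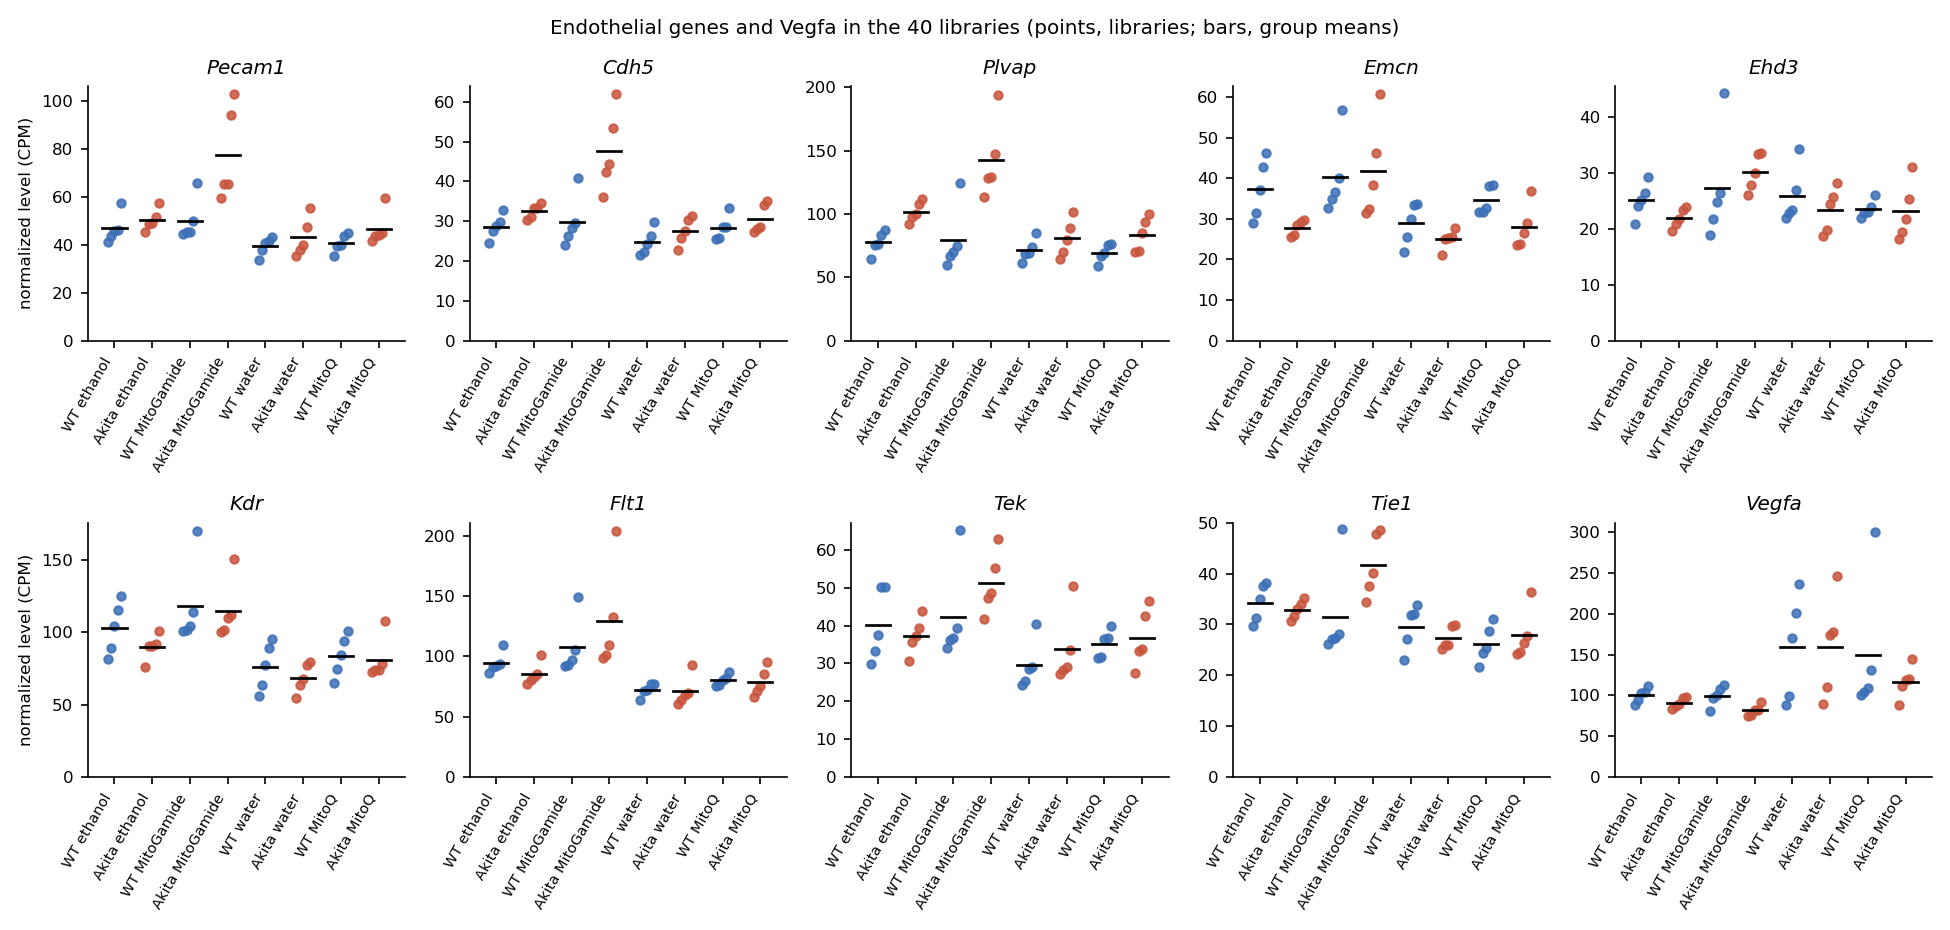
Normalized level (CPM, vertical axis) of the 10 genes in each of the 40 libraries, by group along the horizontal axis (blue, WT; red, Akita; black bars, group means of 5 libraries). Akita mice on MitoGamide held the highest group mean of 8 of the 10 genes (Kdr was highest in WT mice on MitoGamide, at 118 CPM, and Vegfa in Akita mice on water, at 159 CPM).

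The first question was whether the endothelial genes differed between diabetic and WT mice. Each treatment gave its own comparison of 5 Akita with 5 WT mice, and no library was used in more than 1 of these 4 comparisons. On the ethanol vehicle, Plvap rose and Emcn fell in Akita mice. The call was made for 2 of the 10 genes, beside 16.4% of all 17747 genes tested, a share that is close to the background.

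Plvap stood at 91.8, 112, 108, 99.8 and 97.3 CPM in the Akita mice on ethanol and at 76.3, 87.6, 75.8, 64.5 and 83.5 CPM in the WT mice. All 5 Akita values lay above all 5 WT values, which was so for 5.46% of all genes. The log2 fold change was 0.41 (SE 0.084, adjusted p = 0.00491 by edgeR). It stayed called when any one of the 10 libraries was left out (log2 fold change 0.35 to 0.46).

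Emcn stood at 28.4, 29.8, 26.1, 25.6 and 29.3 CPM in the Akita mice on ethanol and at 42.7, 46.3, 31.4, 28.9 and 37.2 CPM in the WT mice. The groups overlapped through WT replicate 4, and the Akita values were the more even ones. The log2 fold change was -0.40 (SE 0.12, adjusted p = 0.0308 by edgeR), and on leaving out single libraries the adjusted p was no longer under 0.05 in 6 of 10 fits (Akita replicates 1, 3 and 4, WT replicates 1, 2 and 5, with values up to 0.0774). Without WT replicate 2, 2 of the 10 genes were called (beside 2629 of all genes), of which Emcn was not one.

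With no library left out, the other 8 genes were not called on the ethanol vehicle. Among the junction genes, Cdh5 had a log2 fold change of 0.20 (SE 0.078, adjusted p = 0.104 by edgeR) and Pecam1 one of 0.12 (SE 0.091). Ehd3 (-0.19, SE 0.089), Kdr (-0.18, SE 0.11), Flt1 (-0.13, SE 0.084), Tek (-0.09, SE 0.14) and Tie1 (-0.04, SE 0.078) all had values below 0, and so had Vegfa (-0.12, SE 0.071). With all 40 libraries in one fit, 0 of the 10 genes were called in this comparison (Plvap 0.39, adjusted p = 0.167 by edgeR), and over all genes 844 of 17769 were, instead of 2910 of 17747.

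On MitoGamide, 3 of the 10 genes were called between Akita and WT mice, beside 14.3% of all genes tested, and all 3 rose in Akita mice. They were Plvap (log2 fold change 0.87, SE 0.20, adjusted p = 0.0144 by edgeR), Cdh5 (0.70, SE 0.16, adjusted p = 0.0159) and Pecam1 (0.65, SE 0.16, adjusted p = 0.0222). In the Akita mice on MitoGamide, Plvap stood at 147, 129, 113, 128 and 194 CPM, and in the WT mice at 59.7, 70.2, 74.3, 67.0 and 124 CPM. Only WT replicate 5 reached the Akita range. Pecam1 stood at 94.1, 65.5, 59.4, 65.2 and 103 CPM in the Akita mice and at 45.2, 50.1, 44.3, 45.2 and 65.8 CPM in the WT mice, again with WT replicate 5 as the one value in the Akita range. Cdh5 stood at 53.4, 42.3, 36.2, 44.5 and 62.0 CPM in the Akita mice and at 28.2, 29.5, 24.0, 26.2 and 40.8 CPM in the WT mice. Mitochondrial genes took 28.0% to 35.4% of the counts in these Akita mice and 24.6% to 27.8% in these WT mice. For ribosomal RNA genes the shares were 22.4% to 27.4% and 18.4% to 25.5%. With the share of olfactory receptor genes as a covariate, described below, 0 of the 10 and 111 of all genes were called. The ranges of this share did not overlap between these groups, so that the fit could hardly separate it from the genotype. The part of these measures in the result was not tested.

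WT replicate 5 on MitoGamide was the highest library of its group for all 9 endothelial genes and the lowest for Vegfa (80.7 CPM). Without it, 7 of the 10 genes were called in this comparison (and 2477 of all genes, against 2386 with it), namely Tek, Tie1, Ehd3 and, with a negative fold change, Vegfa in addition to the 3 above. Plvap and Cdh5 were called without any one of the 10 libraries, but Pecam1 lost its call without WT replicate 1, 2, 3 or 4 (adjusted p up to 0.0591 by edgeR). With all libraries, Tie1 (log2 fold change 0.43, SE 0.17), Tek (0.30, SE 0.17), Flt1 (0.29, SE 0.20) and Ehd3 (0.17, SE 0.20) had values above 0 without a call, Emcn stood at 0.08 (SE 0.19), Kdr at -0.01 (SE 0.16) and Vegfa at -0.25 (SE 0.096, adjusted p = 0.0989 by edgeR).

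In the water arm, 0 of the 10 genes were called between Akita and WT mice, on water or on MitoQ. Over all genes, 0.552% were called on water and 0.557% on MitoQ. An unadjusted p under 0.05 was found by edgeR for 0 of the 10 genes on water and for 1 on MitoQ (Emcn), and DESeq2 called 0 in both. Over all genes, 1384 on water and 1644 on MitoQ had such a p, and DESeq2 called 354 and 415. Plvap had a log2 fold change of 0.18 (SE 0.16) on water and of 0.28 (SE 0.13) on MitoQ, and Emcn one of -0.22 (SE 0.15) and of -0.30 (SE 0.13). Pecam1 stood at 0.13 (SE 0.15) and 0.20 (SE 0.13), and Cdh5 at 0.15 (SE 0.14) and 0.12 (SE 0.11). The genotype effect on ethanol minus that on water was called for 0 of the 10 genes and for 0% of all 18050 genes tested. By edgeR, 0 of the 10 and 767 of all genes had an unadjusted p under 0.05, and DESeq2 called 0 and 2. For Plvap the effect on ethanol minus that on water was 0.23 (SE 0.18) and for Emcn -0.19 (SE 0.20).

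Over all treatments together, with 20 mice of each genotype, 4 of the 10 genes were called, beside 22.8% of all 17769 genes. Plvap (log2 fold change 0.42, SE 0.078, adjusted p = 7.38e-05 by edgeR), Cdh5 (0.28, SE 0.065, adjusted p = 0.00114) and Pecam1 (0.27, SE 0.070, adjusted p = 0.00435) rose in Akita mice, and each stayed called when any one of the 40 libraries was left out. Emcn fell (-0.22, SE 0.080, adjusted p = 0.0416 by edgeR), but it kept its call in only 13 of 40 fits without 1 of the libraries. Kdr (-0.11, SE 0.080), Flt1 (0.02, SE 0.075), Tek (0.10, SE 0.091), Tie1 (0.08, SE 0.070), Ehd3 (-0.06, SE 0.081) and Vegfa (-0.19, SE 0.12) were not called.

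Over all genes, 5567 of 17256 were called in the ethanol arm alone and 756 of 18225 in the water arm alone, so that the arms differed in calls well beyond the members, of which 4 and 0 were called. Computed within the arms, the genotype effect on Plvap was 0.65 (SE 0.11, adjusted p = 0.000233 by edgeR) in the ethanol arm and 0.23 (SE 0.10, adjusted p = 0.301) in the water arm. For Cdh5 it was 0.45 (SE 0.095, adjusted p = 0.00108) and 0.13 (SE 0.089, adjusted p = 0.608 by edgeR), and for Pecam1 0.39 (SE 0.10, adjusted p = 0.00502) and 0.17 (SE 0.098, adjusted p = 0.521). For Emcn it was -0.16 (SE 0.12, adjusted p = 0.324) and -0.26 (SE 0.10, adjusted p = 0.209 by edgeR), so that neither arm alone gave a call. Vegfa was called in the ethanol arm alone, with a log2 fold change of -0.18 (SE 0.060, adjusted p = 0.0264 by edgeR), and stood at -0.18 (SE 0.23, adjusted p = 0.893) in the water arm.

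**Figure D2:**
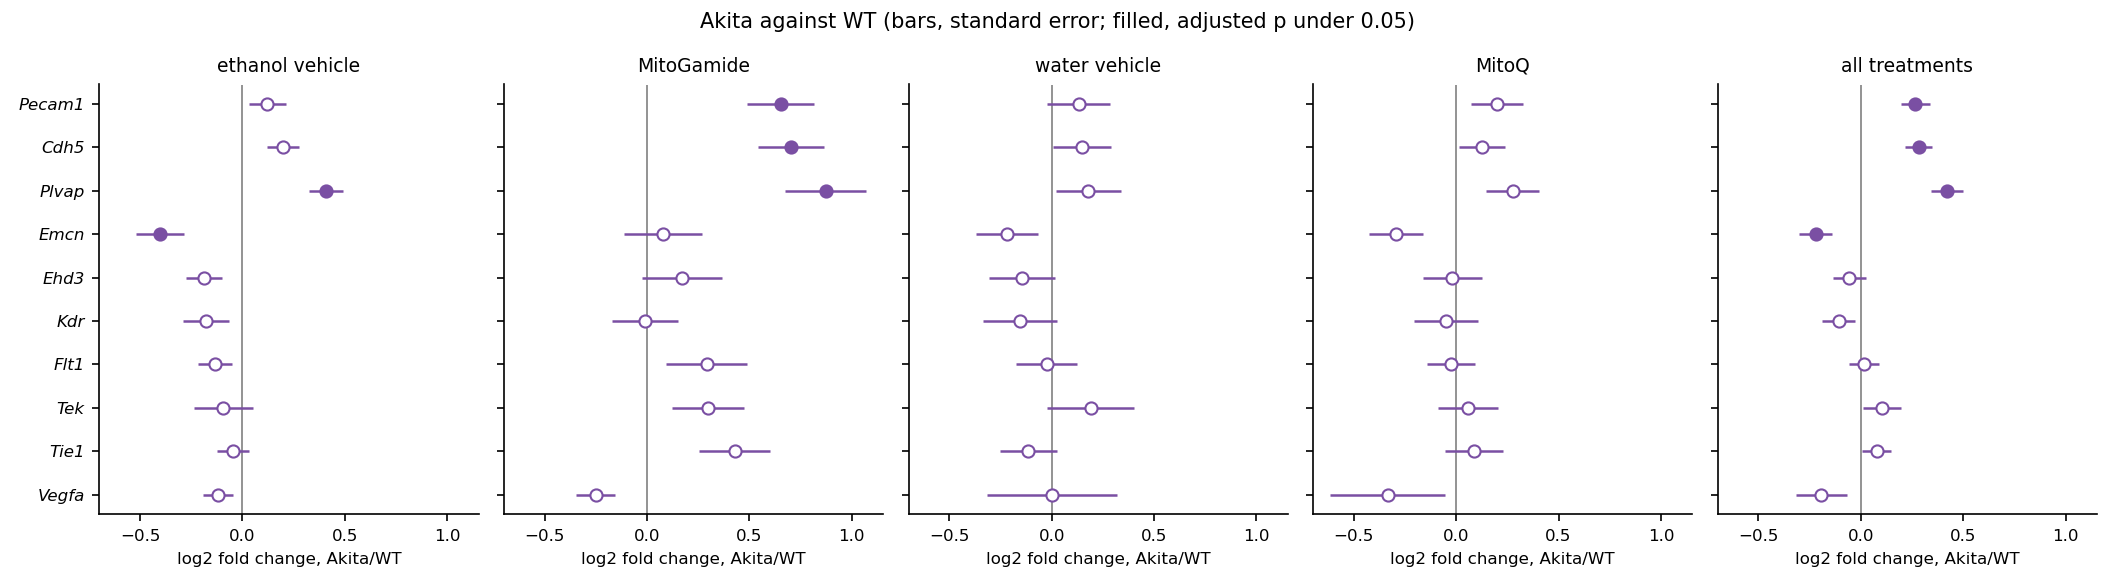
Log2 fold change of Akita against WT mice (horizontal axis) for the 10 genes (vertical axis) on each treatment and over all treatments. Circles are estimates, bars are SE and filled circles have an adjusted p under 0.05. Plvap lay to the right of 0 in all 5 panels (0.18 to 0.87), while Emcn lay to the left in all but the MitoGamide panel.

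Because Plvap and Emcn differed from WT in opposite directions, their counts were also set against each other within each library, a comparison chosen after the values were seen and given with no test. The ratio of Plvap to Emcn counts does not depend on the scaling between libraries. It was 2.11 ± 0.264 in WT and 3.67 ± 0.385 in Akita mice on ethanol (SD, n = 5 each), 1.96 ± 0.309 and 3.48 ± 0.521 on MitoGamide, 2.52 ± 0.464 and 3.24 ± 0.448 on water, and 2.02 ± 0.258 and 3.02 ± 0.447 on MitoQ. In the ethanol vehicle, MitoGamide and MitoQ groups, all Akita ratios lay above all WT ratios, while the water groups overlapped. Of the 20 Akita libraries, 14 lay above every WT library, and of the 20 WT libraries, 18 lay below every Akita library. Some separation follows from the choice of 2 genes with opposite differences in these same libraries. The share of other gene pairs that separate as far was not computed, so that the counts add no separate support. The highest WT ratio was 3.16 (WT water replicate 4, which is among the 5 uneven libraries) and the lowest Akita ratio was 2.52 (Akita water replicate 3).

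Other ratios are given over the genotypes. Pecam1 relative to Kdr stood at 0.479 ± 0.0638 over the 20 WT and 0.613 ± 0.100 over the 20 Akita libraries (SD). Ehd3 relative to Plvap stood at 0.342 ± 0.0391 and 0.253 ± 0.0628. Flt1 relative to Kdr (0.952 ± 0.136 and 1.03 ± 0.251) and Tek relative to Tie1 (1.22 ± 0.214 and 1.23 ± 0.165) differed by less than 1 SD.

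**Figure D3:**
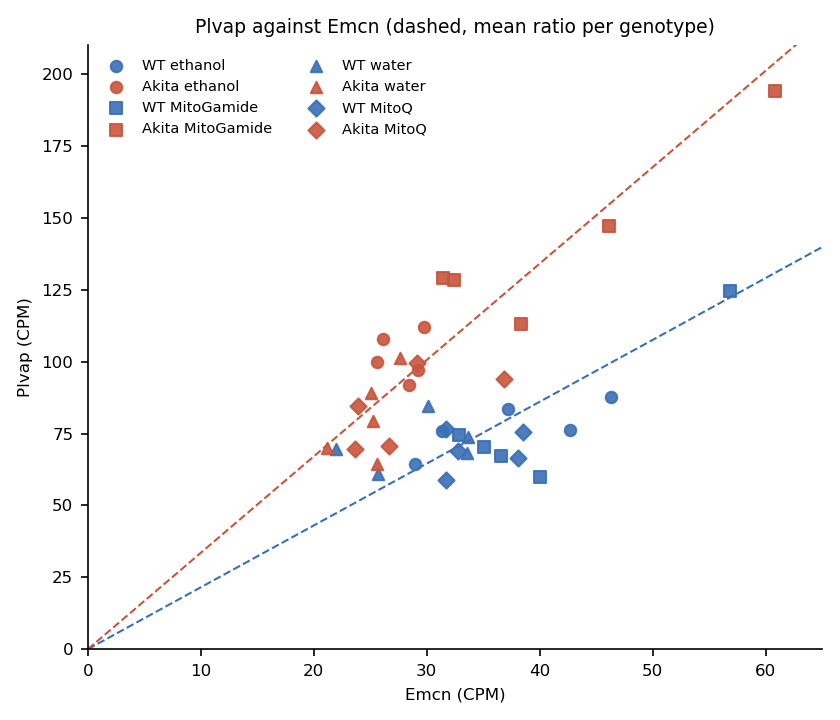
Plvap (vertical axis, CPM) against Emcn (horizontal axis, CPM) in the 40 libraries (blue, WT; red, Akita; symbols, treatments; dashed lines, mean ratio of each genotype, 2.15 for WT and 3.35 for Akita). Of the 20 red symbols, 14 lie above the steepest blue one in ratio (3.16), while the ratios of the genotypes overlap between 2.52 and 3.16. The pair of genes was chosen after the values were seen.

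The second question was whether MitoGamide or MitoQ changed these genes. In Akita mice, all 9 endothelial genes had a positive log2 fold change on MitoGamide (0.35 to 0.62, median 0.49, beside a median of -0.00205 over all genes), and Cdh5 and Ehd3 rose by the test. These 2 called genes of 10 compare with 1.26% of all 17051 genes tested. An unadjusted p under 0.05 was found by edgeR for 9 of the 10 genes (3564 of all genes), and DESeq2 called 8 (all endothelial genes but Kdr) and 1022 of all genes.

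Ehd3 stood at 33.5, 27.9, 26.05, 33.3 and 29.9 CPM in the Akita mice on MitoGamide and at 20.8, 19.5, 23.3, 23.9 and 21.7 CPM in those on ethanol, with no overlap. The log2 fold change was 0.47 (SE 0.093, adjusted p = 0.0407 by edgeR). Cdh5 stood at 53.4, 42.3, 36.2, 44.5 and 62.0 CPM on MitoGamide, as above, and at 30.4, 34.6, 33.3, 30.9 and 33.3 CPM on ethanol, likewise with no overlap (log2 fold change 0.55, SE 0.12, adjusted p = 0.0478 by edgeR). In all, the MitoGamide values lay above all ethanol values for 5 of the 10 genes (Pecam1, Cdh5, Emcn, Plvap and Ehd3), beside 4.05% of all genes.

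Pecam1 (log2 fold change 0.62, SE 0.14, adjusted p = 0.0544 by edgeR), Flt1 (0.60, SE 0.17, adjusted p = 0.0919), Emcn (0.59, SE 0.15, adjusted p = 0.0700) and Plvap (0.49, SE 0.12, adjusted p = 0.0647) missed the threshold. So did Tek (0.46, SE 0.12), Kdr (0.36, SE 0.12) and Tie1 (0.35, SE 0.094). Emcn stood at 46.2, 31.4, 38.3, 32.4 and 60.8 CPM on MitoGamide, against 25.6 to 29.8 CPM on ethanol. Vegfa stood at 81.7, 76.4, 82.6, 91.7 and 75.2 CPM on MitoGamide and at 83.5, 87.4, 89.0, 97.3 and 97.7 CPM on ethanol, groups that overlapped (log2 fold change -0.15, SE 0.081, adjusted p = 0.311 by edgeR).

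The calls on MitoGamide in Akita mice were lost on leaving out most single libraries. Akita replicate 5 on MitoGamide held the highest levels of Flt1 (204 CPM), Plvap (194 CPM), Pecam1 (103 CPM), Cdh5 (62.0 CPM) and Emcn (60.8 CPM) of all 40 libraries, while its Kdr level (102 CPM) was within the range of its group, so that its ratio of Flt1 to Kdr counts was 2.004 and those of the other 4 lay between 0.882 and 0.987. Without it, 6 of the 10 genes were called (Pecam1, Flt1, Cdh5, Emcn, Plvap and Ehd3) and 802 of all genes, against 214 with it. Without any one of 8 others (each of the Akita replicates on ethanol and replicates 1, 2 and 4 on MitoGamide) 0 of the 10 were called, and over all genes 0 to 4 were called without an ethanol library and 13 to 212 without one of these MitoGamide libraries. The smallest and largest log2 fold changes over these 10 fits were 0.45 and 0.64 for Cdh5, 0.43 and 0.52 for Ehd3, and 0.39 and 0.68 for Flt1, the lowest for Flt1 being that without Akita replicate 5 on MitoGamide.

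Other measures moved with this comparison. Mitochondrial genes took 28.0% to 35.4% of the counts in Akita mice on MitoGamide and 21.6% to 28.7% in those on ethanol, and ribosomal RNA genes, those of mitochondria included in both shares, took 22.4% to 27.4% and 15.9% to 25.5%. Their part in the result was not tested. The summed share of olfactory receptor genes, a large family used mainly in the nose, was 249 to 445 CPM of all counts in Akita mice on MitoGamide and 420 to 587 in those on ethanol. With this share as a covariate, which was added after the data were examined, 0 of the 10 genes and 1 of all 17051 were called, with log2 fold changes between 0.43 (Kdr) and 0.81 (Flt1) for the 9 endothelial genes. In the comparison of Akita with WT mice on MitoGamide (249 to 445 and 448 to 748), the same covariate left 0 calls among the 10 genes and 111 over all genes (2386 without it), with log2 fold changes of 0.75 for Pecam1, 0.72 for Cdh5 and 0.64 for Plvap, while Ehd3 turned from 0.17 to -0.24 (SE 0.28). The ranges of the share did not overlap between these groups, so that this fit could hardly separate the covariate from the genotype. The paper reports olfactory signaling genes as themselves lower in diabetes and lower still on MitoGamide. The 12 podocyte genes summed to 453 to 737 CPM on MitoGamide and 477 to 535 CPM on ethanol, with 0 of 12 called and 11 above 0 (median 0.19). The 11 mural and mesangial genes summed to 207 to 257 and 194 to 229 CPM, with 1 called (Des, the intermediate filament desmin, 0.51, SE 0.10, adjusted p = 0.0417 by edgeR). The platelet and red cell genes summed to 550 to 1569 and 375 to 836 CPM (0 of 4 tested genes called, and 2 of 6 under the filter). The part of blood content and of these other cell types in the result was not tested.

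In WT mice, MitoGamide was accompanied by 0 calls among the 10 genes and by 0% called of all 17395 genes tested (0 of the 10 with an unadjusted p under 0.05 by edgeR and 0 called by DESeq2, against 1841 and 73 over all genes). The largest log2 fold change was 0.20 (Kdr, SE 0.15) and the median over the 9 endothelial genes was 0.09. The effect of MitoGamide in Akita minus that in WT mice was above 0 for all 9 endothelial genes (0.16 for Kdr to 0.52 for Pecam1, median 0.45), with 0 of 10 called and 0% of all genes called. The unadjusted p was under 0.05 by edgeR for 3 of the 10 genes (1435 of all 17256 genes), Pecam1 (0.52, SE 0.20, adjusted p = 0.585), Cdh5 (0.49, SE 0.19, adjusted p = 0.585) and Tie1 (0.46, SE 0.20, adjusted p = 0.593), and DESeq2 called 0 of all genes. A difference between the genotypes in the response to MitoGamide was therefore not shown for any of these genes.

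MitoQ was accompanied by 0 calls among the 10 genes in Akita mice and 0 in WT mice, beside 0% of all genes in each (0 of the 10 with an unadjusted p under 0.05 by edgeR, 0 called by DESeq2, in both). Over all genes, 363 in Akita and 575 in WT mice had an unadjusted p under 0.05, and DESeq2 called 0 and 2. In Akita mice the log2 fold changes of the endothelial genes ranged from -0.01 (Ehd3) to 0.25 (Kdr, SE 0.15), and Vegfa stood at -0.45 (SE 0.24), which became -0.10 (SE 0.22) without the uneven libraries. Under the same exclusion Kdr moved to 0.13 (SE 0.16), and Pecam1, Tek and Tie1 turned from values above 0 to -0.02, -0.03 and -0.02. In WT mice they ranged from -0.17 (Tie1, SE 0.15) to 0.25 (Tek, SE 0.16). The effect of MitoQ in Akita minus that in WT mice was called for 0 of the 10 genes and 0% of all 18225 genes. By edgeR, 0 of the 10 and 207 of all genes had an unadjusted p under 0.05, and DESeq2 called 0 and 0. The compounds were given in different vehicles and the dose of MitoQ is not known here, so that their effects are set side by side and not compared.

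**Figure D4:**
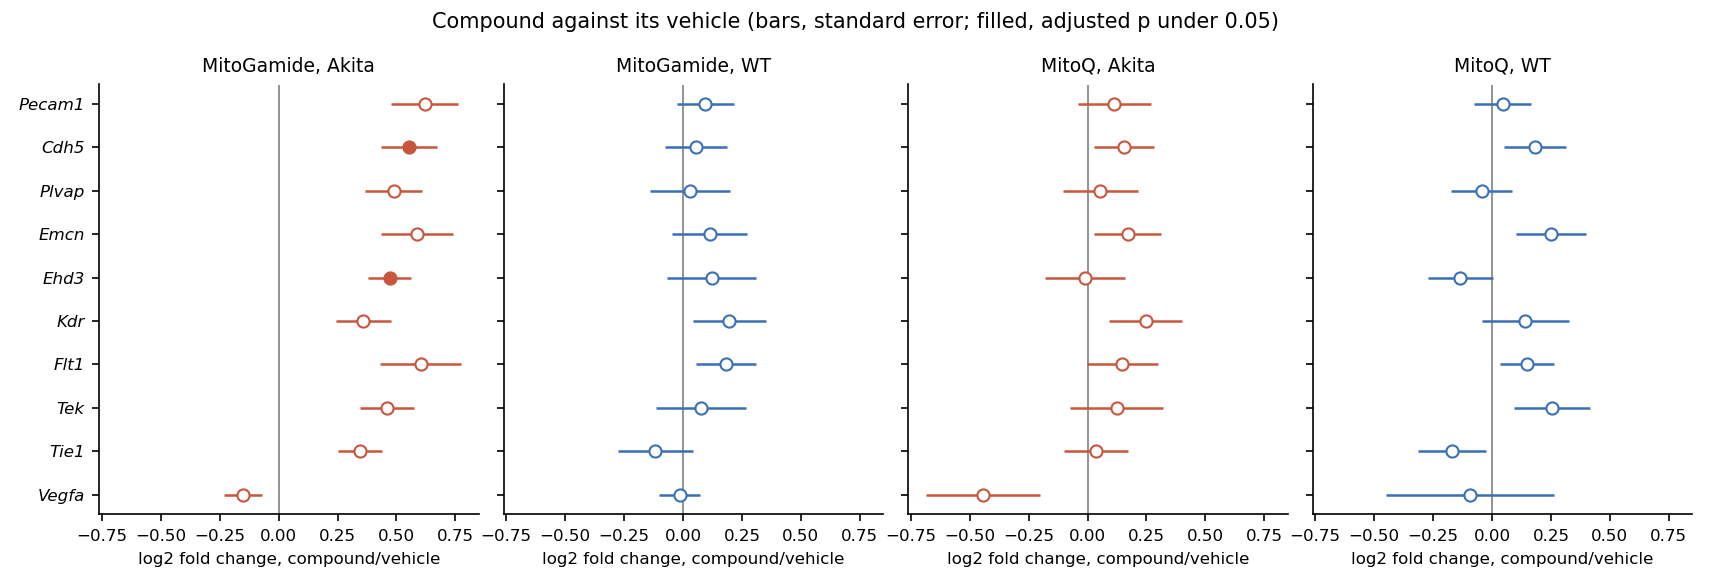
Log2 fold change of each compound against its own vehicle (horizontal axis) for the 10 genes (vertical axis), in Akita and WT mice. Circles are estimates, bars are SE and filled circles have an adjusted p under 0.05 (Cdh5 and Ehd3 on MitoGamide in Akita mice). The 9 endothelial genes lie between 0.35 and 0.62 in the first panel and between -0.12 and 0.20 in the second.

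By the ratio of highest to lowest level, Vegfa varied most of the 10 genes. It ranged from 75.2 CPM (Akita MitoGamide replicate 5) to 300.4 CPM (WT MitoQ replicate 3). In the ethanol arm the group means were 100.1 ± 9.4 CPM in WT and 91.0 ± 6.3 CPM in Akita mice on ethanol, and 99.4 ± 12.2 and 81.5 ± 6.5 CPM on MitoGamide (SD, n = 5 each). In the water arm they were 159 ± 63.7 and 159 ± 61.7 CPM on water and 149 ± 85.3 and 116 ± 20.3 CPM on MitoQ. Between the genotypes on MitoQ, the log2 fold change of Vegfa was -0.34 (SE 0.28) and turned to 0.06 (SE 0.14) without WT replicate 3. The WT mice on water stood at 99.7, 170, 236, 201 and 88.8 CPM and the Akita mice on water at 110, 246, 178, 89.8 and 174 CPM. The 5 libraries in which few genes held over 45% of the counts had between 174 and 300.4 CPM of Vegfa. Outside them, Akita water replicate 3 (178 CPM) and WT water replicate 2 (170 CPM) were the highest.

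Across libraries, Vegfa rose with the share of olfactory receptor genes. Pearson's r was 0.75 and Spearman's rho 0.89 over 40 libraries (permutation p = 1e-05 for both, the smallest that 100000 permutations can give, two-sided, adjusted over 10 relations to 1.67e-05 and 1.43e-05). Without the 2 libraries farthest from the median share, r was 0.75. Within the ethanol arm r was 0.71 and rho 0.81 (permutation p = 0.00046 and 0.0001, adjusted p = 0.0023 and 0.0005, n = 20), and within the water arm r was 0.64 and rho 0.73 (permutation p = 0.00251 and 0.00036, adjusted p = 0.0125 and 0.0036, n = 20).

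The endothelial genes had the opposite sign. Pecam1 gave r = -0.72 and rho = -0.79 over 40 libraries (permutation p = 1e-05 for both, the smallest possible, adjusted p = 1.67e-05 and 1.43e-05), and r = -0.68 without the 2 farthest libraries. Within the ethanol arm Pecam1 gave r = -0.60 and rho = -0.75 (permutation p = 0.00579 and 0.00025, adjusted p = 0.0145 and 0.000625). Within the water arm it gave r = -0.55 and rho = -0.47 (permutation p = 0.0116 and 0.0392), of which rho missed the threshold after adjustment (adjusted p = 0.0232 and 0.0825). Plvap gave r = -0.71 within the ethanol arm (permutation p = 0.00044, adjusted p = 0.0023), but r = -0.26 within the water arm (permutation p = 0.261, adjusted p = 0.29). Kdr gave r = -0.71 in the water arm (permutation p = 0.00057, adjusted p = 0.0057) and missed the threshold in the ethanol arm (r = -0.19, permutation p = 0.41, adjusted p = 0.456). The weakest relations were those of Emcn in the ethanol arm (r = -0.11, permutation p = 0.643, adjusted p = 0.643) and of Ehd3 in the water arm (r = -0.09, permutation p = 0.717, adjusted p = 0.717). The olfactory receptor share differed between the arms, with a median of 453 CPM of all counts in the ethanol and 827 in the water arm. Groups differed as well, since Akita mice on MitoGamide had the lowest median share (340 CPM of all counts) and the highest mean of Pecam1 (77.4 CPM). These relations, those of Vegfa included, therefore hold differences between groups as well as between libraries of a group. Values within single groups are not given.

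**Figure D5:**
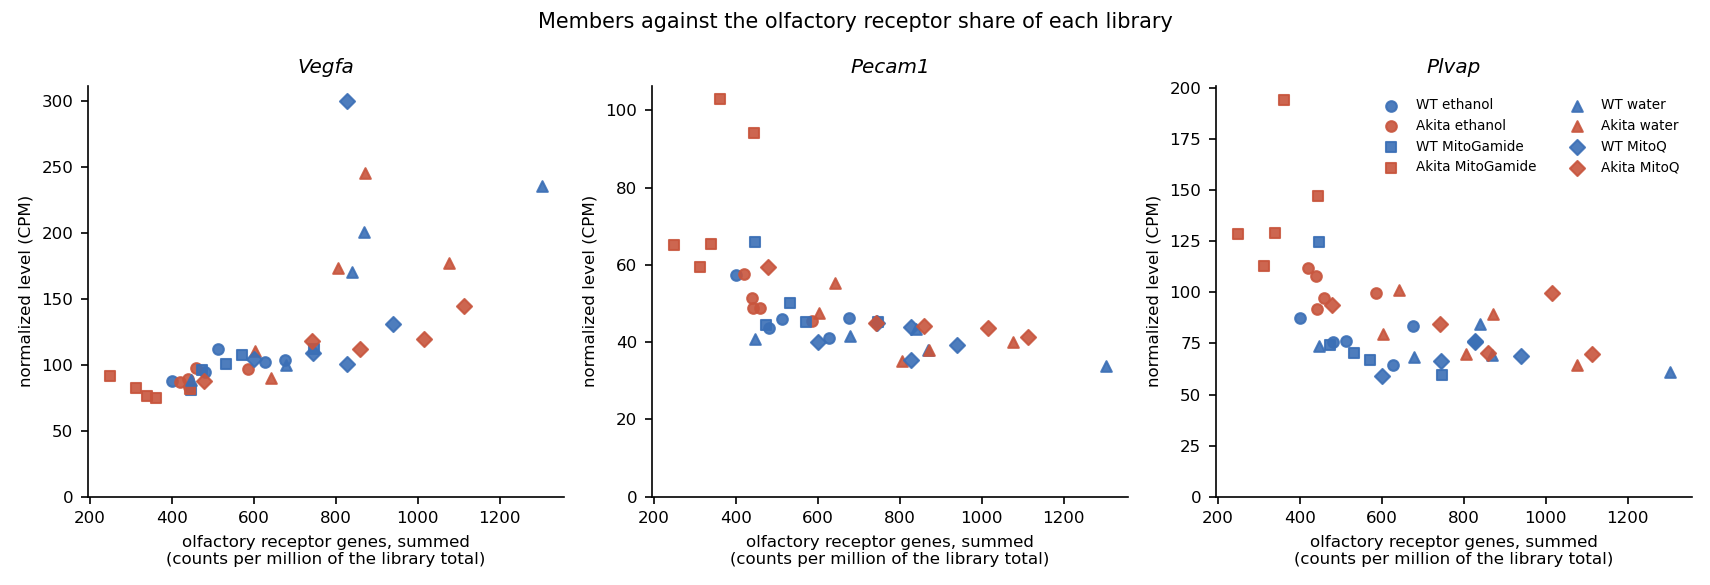
Level (CPM, vertical axes) of Vegfa, Pecam1 and Plvap in the 40 libraries against the summed share of olfactory receptor genes (CPM of all counts) (horizontal axes; blue, WT; red, Akita; symbols, treatments). Vegfa is higher in libraries with a larger share (r = 0.75) and Pecam1 is lower (r = -0.72).

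With the olfactory receptor share as a covariate, the comparison over all treatments called Plvap (0.38, SE 0.078, adjusted p = 0.000248 by edgeR), Cdh5 (0.25, SE 0.064, adjusted p = 0.0033), Emcn (-0.26, SE 0.080, adjusted p = 0.0112) and Pecam1 (0.22, SE 0.068, adjusted p = 0.0143). Kdr was called in addition (-0.18, SE 0.070, adjusted p = 0.047 by edgeR), and Vegfa stood at -0.03 (SE 0.11). Calls over all genes rose likewise, to 5193 of 17769 (4052 without the covariate).

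After the 8 group means were removed, the levels of the 9 endothelial genes followed each other from library to library. The 36 pairs had a median Pearson's r of 0.68 (0.32 to 0.85) on the log2 scale over 40 libraries, whereas Vegfa and the 9 endothelial genes gave a median of -0.31 (-0.62 to 0.06). Such values with Vegfa were common among all genes. The share of genes with a higher r with Vegfa was 37.4% for Ehd3, 53.3% for Flt1 and 69.7% for Kdr. These values are given as a description, since the libraries share their scaling and differ in composition. Members aside, those most like the mean of the 9 genes were Plpp1 (r = 0.90), Ptprb (0.90), Sparc (0.87), Abca9 (0.85) and Slfn5 (0.84), among 12152 genes whose mean count reached 50. Of the members themselves, Pecam1 (0.91) was the closest to this mean, to which each contributes, and Ehd3 (0.60) the farthest. Ptprb is the endothelial phosphatase VE-PTP, which acts on Tek and Cdh5, and Sparc is a matrix protein made by endothelial and stromal cells. The genes most like Vegfa were Srcin1 (r = 0.96), Srrm2, Ddx39b, Mlxipl and Atxn2l (all 0.95), of which Srrm2 and Ddx39b act in splicing of RNA.

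The other genes of the Vegfa and angiopoietin pathways were taken from lists and are described for Akita against WT mice over all treatments, where 22.8% of all genes were called. Of the 11 other ligands and guidance cues listed, 9 were tested and 4 called. Vegfd, a ligand of Flt4, rose (log2 fold change 0.54, SE 0.077, adjusted p = 1.38e-06 by edgeR), while Vegfc, also a ligand of Flt4, fell (-0.58, SE 0.13, adjusted p = 0.000989). Apln, the ligand of the apelin receptor (-0.42, SE 0.15), and Sema3c, a semaphorin (-0.30, SE 0.090), fell as well. Of the 8 receptors and partners, 7 were tested and 3 called. Flt4, VEGF receptor 3, rose (0.30, SE 0.056), as did Ptprb (0.25, SE 0.065), and Nrp1, a coreceptor of Kdr, fell (-0.29, SE 0.058). Ptprb was also the one listed gene of this pathway called on MitoGamide in Akita mice (0.62, SE 0.14, adjusted p = 0.0495 by edgeR). In that comparison 1.26% of all genes were called. Like all its calls, that of Ptprb was lost with the replicate block and without Akita replicate 1 or 2 on ethanol.

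Of the 12 Notch and tip cell genes, 11 were tested and 5 called. Esm1, a proteoglycan of tip cells that is induced by Vegfa in many vascular beds, fell most (-0.79, SE 0.14, adjusted p = 5.74e-05 by edgeR) and stood at 23.2 ± 3.7 CPM in WT and 12.5 ± 2.3 CPM in Akita mice on ethanol (SD, n = 5 each). The Notch ligand Jag1 (-0.18, SE 0.055) and the Notch target Heyl (-0.32, SE 0.11) fell, and Nrarp, a Notch feedback regulator (0.36, SE 0.11), and the netrin receptor Unc5b (0.30, SE 0.062) rose.

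Among the 26 other endothelial genes, 15 were called over all treatments and all 15 rose in Akita mice (median of the 26 log2 fold changes 0.26, and -0.02 over all genes). They include Cd34, a surface sialomucin (0.54, SE 0.083, adjusted p = 4.22e-06 by edgeR), the C-type lectin Clec14a (0.51, SE 0.081), the transcription factor Sox7 (0.52, SE 0.093), Klf4, a factor induced by shear stress (0.61, SE 0.13), Vwf, the clotting factor carrier (0.74, SE 0.16), Eng, a coreceptor for TGF-beta (0.34, SE 0.071), and the sphingosine receptor S1pr1 (0.47, SE 0.13). The others were Esam, Mmrn2, Ramp2, Cd93, Tspan7, Sox18, Erg and Gata2, from 0.19 (Ramp2) upwards. Cd34 stood at 17.4 ± 1.6 CPM in WT and 24.8 ± 3.3 CPM in Akita mice on ethanol and at 14.6 ± 3.4 and 20.9 ± 5.3 CPM on water (SD, n = 5 each). Klf4 (10.2 ± 7.0 CPM), S1pr1 (17.6 ± 12.0 CPM) and Cd93 (62.2 ± 43.8 CPM) were highest and widely spread in Akita mice on MitoGamide. Klf4 and S1pr1 had higher means in Akita than in WT mice on every treatment. For Cd93 this was not so on ethanol (34.1 ± 4.2 CPM in WT and 31.3 ± 2.5 CPM in Akita mice). On MitoGamide against ethanol in Akita mice, 0 of the 26 were called by edgeR and 22 were above 0 (median 0.25).

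Genes of single vascular segments did not share a direction. Of 5 tested glomerular endothelial genes, Lpl was the one called, and of 8 peritubular and venous genes Npr3 (-0.68, SE 0.075), Cd36 (-1.11, SE 0.17) and Nr2f2 (-0.13, SE 0.042) fell, and Gpihbp1 (0.58, SE 0.12) and Rgcc (0.74, SE 0.18) rose. Lpl, lipoprotein lipase, was the listed gene with the largest change (-2.10, SE 0.10, adjusted p = 5.59e-18 by edgeR), from 465 ± 82.0 CPM in WT to 107 ± 5.5 CPM in Akita mice on ethanol (SD, n = 5 each). Lpl and the fatty acid transporter Cd36 are also made by other cells of the kidney, whereas Gpihbp1 is the endothelial protein that holds lipoprotein lipase at the capillary wall. Of 5 tested arterial genes, the gap junction gene Gja4 (0.41, SE 0.13) and Sema3g (0.68, SE 0.093) rose. Of 4 tested lymphatic genes, Pdpn, which podocytes also make, rose (0.40, SE 0.084). Of 7 tested activation genes, 2 were called and rose, among them the leukocyte adhesion molecule Icam1 (0.40, SE 0.065).

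Markers of other cell types moved in the same comparison. Of the 12 podocyte genes, 7 were called and all 7 rose, among them Nphs1, Synpo, Plce1, Ptpro and Cdkn1c (0.29 to 0.64), and 10 of the 12 were above 0. Their sum was 396 to 480 CPM in WT and 477 to 535 CPM in Akita mice on ethanol, and 399.8 to 659 and 447 to 604 CPM on water. Of the 11 mural and mesangial genes, Cspg4, Rgs5 and Gata3 rose (0.29 to 0.37). Of the 5 tested leukocyte genes, Ptprc (-0.55, SE 0.070), Csf1r (-0.71, SE 0.082) and Adgre1 (-0.43, SE 0.15) fell and the other 2 were above 0 without a call, with sums of 50.3 to 68.8 CPM in WT and 33.1 to 44.3 CPM in Akita mice on ethanol. Of the 6 collecting duct genes, Aqp2, Aqp3 and Scnn1g rose (0.33 to 0.98), and the other 3 were below 0 without a call. Of the 6 genes of the thick ascending limb, Umod and Egf fell (-0.50 and -0.25), and 3 were above 0 without a call. Of the 7 proximal tubule genes, Slc34a1 and Lrp2 fell (-0.29 and -0.38), 3 were above 0 without a call, and the median was -0.02, as over all genes. Of the 4 tested platelet and red cell genes, 0 were called by edgeR, and those with the smallest p were Hba-a1 (0.34, SE 0.21) and Alas2 (0.24, SE 0.17). The part that cell composition had in the endothelial values was not tested.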

How the data were processed

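Renal cortex RNA of 40 mice was sequenced after depletion of ribosomal RNA, with a directional kit. Per the submitters' processing notes and the methods of the study, the authors quantified transcripts with kallisto 0.46.1 on GRCm38 and deposited estimated counts per gene, which are not normalized. They were rounded to whole numbers here. The tests used edgeR 4.0.16 in R 4.3.3 (TMM normalization, a minimum mean of 10 counts for a gene, quasi-likelihood test, Benjamini-Hochberg adjustment, threshold 0.05). Each comparison was fitted to its own 10 libraries, the differences between effects to 20, and the genotype effect over all treatments to 40 with group means. The SE was taken as the fold change divided by the root of F. Levels are CPM with TMM factors over the 40 libraries. The procedure was tested on simulated data. In Akita against WT mice on ethanol, a simulated log2 fold change of 1 was called for 82.8% of the changed genes tested. For one of 0.5 the share was 45.8%. Over all treatments the shares were 95.9% and 65.3%, so that changes of 0.5 were often missed.

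The members and gene lists were chosen with earlier results of these data known. All members are named, and of the listed genes those called over all treatments (where a list had none, the 2 with the smallest p) or on a compound. Some of these listed genes are not reported here. The alternatives were DESeq2 1.42.0, other size factors, other filters, all libraries in one fit, a replicate block, leaving out each library, and, added after the data were examined, the arms alone, no libraries with an uneven composition, and the olfactory receptor share as a covariate. Groups came from the labels, each animal is 1 replicate, and 0 pairs of libraries were identical. Library totals were 9106654 to 24321424 counts, and the lowest count of a member in a single library was 100.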

Additional observations from a re-analysis of the deposited data

Results flagged for a closer look

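In 12 of 80 sets of 5 libraries (10 genes in 8 groups), the highest library lay far from the others (a gap of more than 0.71 of the whole range). Chance gives about 5% of independent sets of normally distributed values. These sets are not independent, since the endothelial genes followed each other from library to library, so that the 12 cannot be set against this share. WT replicate 5 on MitoGamide accounted for 6 of the 12. It held 65.8 CPM of Pecam1 (the others 44.3 to 50.1), 169.8 CPM of Kdr (101 to 114), 149 CPM of Flt1 (92.3 to 105), 65.2 CPM of Tek (34.2 to 39.5), 48.7 CPM of Tie1 (26.2 to 28.1) and 124 CPM of Plvap (59.7 to 74.3). Akita replicate 1 on MitoQ held 59.4 CPM of Pecam1 (41.4 to 44.8), 107 CPM of Kdr (72.1 to 78.0) and 36.4 CPM of Tie1 (24.3 to 27.7). Akita replicate 1 on MitoGamide held 150.5 CPM of Kdr (100.4 to 112), and Akita replicate 4 on water 50.4 CPM of Tek (27.3 to 33.6). WT replicate 3 on MitoQ held 300.4 CPM of Vegfa (101 to 131), and in this library the 10 most abundant genes took 72.5% of the counts.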

How the results depend on the processing

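Counts of called members kept within 1.5 times of the reported ones under all alternatives but the following, for which the cause was not tested. On the ethanol vehicle, 0 genes (instead of 2) were called between Akita and WT mice with all 40 libraries in one fit. On MitoGamide, 0 (instead of 3) were called with the olfactory receptor share as a covariate, a share whose ranges did not overlap between these groups. For MitoGamide in Akita mice (2 called, beside 214 of all genes), DESeq2 called 8 (beside 1022 of all genes). A filter of 10 counts in every library left 1 (beside 199 of 14294), and all 40 libraries in one fit left 1 (beside 32 of 17769). The covariate left 0 (beside 1 of 17051), and so did the replicate block (beside 0 of 17051). The genotype effect over all treatments (4 called, beside 4052 of all genes) left 0 in the water arm alone (beside 756 of all genes). Leaving out single libraries gave 1 to 2 calls for the genotype on ethanol, 2 to 7 on MitoGamide, 0 to 6 for MitoGamide in Akita mice and 3 to 4 over all treatments. Over all genes, these fits called 2170 to 2787, 1248 to 2822, 0 to 802 and 3784 to 4391, in the same order. Emcn over all treatments lost its call with the size factors of DESeq2 in edgeR (adjusted p = 0.0525 by edgeR), with no filter (0.122) and without the 5 uneven libraries (0.0564).

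The labels give replicate numbers but state no pairing of the samples. Correlations between libraries of the same number ran from -0.451 to 0.655. In a comparison, 0 to 2 of the 5 libraries of the first group correlated best with the library of their own number. Whether libraries of the same number share a factor was not tested. With the replicate block, MitoGamide in Akita mice gave 0 calls among the members (2 without it) and 0 over all genes (214 without it), and the genotype effect on MitoGamide gave 4 (3 without it, Tie1 being added), beside 2282 over all genes (2386 without it).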

Other observations

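Vegfa is a target of the hypoxia-inducible factors, and 15 genes of this response were listed. Over all treatments, 7 of the 15 were called between Akita and WT mice and all 7 rose, beside 22.8% of all genes called. They were Ankrd37 (log2 fold change 0.91, SE 0.21), Adm, which encodes the vasodilator adrenomedullin (0.79, SE 0.11), Pdk1, a kinase that restrains pyruvate oxidation (0.75, SE 0.12), the prolyl hydroxylase Egln3 (0.70, SE 0.11), Hif3a (0.60, SE 0.18), Bnip3, a mitophagy receptor (0.45, SE 0.16), and Hif1a (0.32, SE 0.067). Of the 15, 10 were above 0 and 5 below, and the median was 0.14. Their sum, to which the most abundant genes contribute most, had a median of 2810 CPM in WT and 2091 CPM in Akita mice on ethanol, 2088 and 1708 CPM on water, 2275 and 2088 CPM on MitoGamide, and 2115 and 2273 CPM on MitoQ. Vegfa itself stood at -0.19 (SE 0.12) and was not called. On MitoGamide against ethanol in Akita mice, 0 of the 15 were called by edgeR, and 9 were above 0.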
